A study of Mus musculus with 12 samples.

Results

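The mouse genome holds 3 genes that carry the name uncoupling protein, Ucp1, Ucp2 and Ucp3, and all 3 were found among the 53379 gene IDs counted in interscapular brown fat. They were taken by symbol and not by a cut on their measured values, though earlier results of these data were known at the time. All 3 passed the filter on low counts that left 15208 genes for testing. RNA was sequenced from 12 pools, each holding RNA of 2 C57BL/6 mice aged 12 weeks and killed at zeitgeber time 9. The 4 groups of 3 pools were control littermates, labelled wild type (WT), at room temperature, WT after 6 h of cold with food, Cdk7 bKO mice (KO), in which Cdk7 was deleted in brown adipose tissue, at room temperature, and KO after the same cold. Cdk7 encodes a kinase of the general transcription factor TFIIH that phosphorylates RNA polymerase II and activates other cyclin-dependent kinases. The Cre or promoter behind the deletion, the sex of the mice and the temperature of the cold are not given in the sources used here. Because each library pools a pair of mice, spreads are those between pools and not between single animals. The comparisons ask how each uncoupling protein gene differed between KO and WT at either temperature, how it differed between cold and room temperature in each genotype, and whether these cold responses differed (the interaction of genotype and cold).

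Uncoupling proteins are carriers of the inner mitochondrial membrane and members of the SLC25 family. Ucp1, the defining protein of brown adipocytes, is opened by fatty acids and lets protons return to the matrix without ATP synthesis, so that the energy of respiration is released as heat. Noradrenaline from sympathetic nerves raises its transcription in the cold through beta-adrenergic receptors, cAMP and protein kinase A. Ucp3 is found in skeletal muscle and brown fat and is known as a gene induced by fatty acids through PPAR receptors. Ucp2 is found in many tissues, with high levels in macrophages, lymphocytes and other immune cells. Neither Ucp2 nor Ucp3 is held to be a main source of heat.

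Ucp1 (ENSMUSG00000031710) lies on chromosome 8 at chr8:83290352-83298452, plus strand, of the genome build GRCm38, with 1636 bases of exon and 1 annotated transcript. Ucp3 (ENSMUSG00000032942, chr7:100472990-100486432) and Ucp2 (ENSMUSG00000033685, chr7:100493337-100502020) are neighbours on the plus strand of chromosome 7, with 6904 bases between the end of Ucp3 and the start of Ucp2. Their exons cover 3135 bases over 4 transcripts and 6989 bases over 11 transcripts. The 3 genes moved in different ways, as given in what follows, and whether the bases upstream play a part was not tested. Those bases are shown as a description of the stretch next to each start alone. They come from RefSeq promoters of GRCm38.p6, plus strand, and end before the first base that either RefSeq or the gene annotation puts in a transcript. Capitals mark matches, on either strand, to letters searched for: TATAAA and the related letters TATATA for the box that places the start of transcription, GGGCGG for the site of Sp1, CCAAT for that of NF-Y, and then AGGTCA (core of the sites of nuclear receptors such as PPAR and thyroid hormone receptors), TCAAGGTCA (estrogen-related receptors), TGACGTCA (full cAMP response element) and its core TGACG. The letters AGGTCA are part of TCAAGGTCA, as TGACG is of TGACGTCA. The letters were chosen with these sequences in view.
Ucp1, chr8:83290098-83290347: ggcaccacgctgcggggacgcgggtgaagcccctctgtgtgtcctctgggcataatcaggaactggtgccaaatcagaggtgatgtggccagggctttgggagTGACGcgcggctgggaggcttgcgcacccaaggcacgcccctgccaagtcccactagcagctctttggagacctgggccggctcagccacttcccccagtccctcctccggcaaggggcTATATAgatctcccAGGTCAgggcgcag
Ucp2, chr7:100493108-100493336: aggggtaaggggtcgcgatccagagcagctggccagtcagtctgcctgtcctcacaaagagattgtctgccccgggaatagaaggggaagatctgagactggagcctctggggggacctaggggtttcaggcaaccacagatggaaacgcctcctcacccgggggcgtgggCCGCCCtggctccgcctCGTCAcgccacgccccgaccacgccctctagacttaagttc
Ucp3, chr7:100472741-100472989: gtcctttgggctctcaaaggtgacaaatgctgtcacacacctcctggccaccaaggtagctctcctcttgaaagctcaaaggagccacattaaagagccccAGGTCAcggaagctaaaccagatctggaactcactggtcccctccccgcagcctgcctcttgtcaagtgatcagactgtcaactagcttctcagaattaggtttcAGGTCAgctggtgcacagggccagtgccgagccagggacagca
Counted from the RefSeq start, Ucp1 has TATATA at -28 to -23, AGGTCA at -14 to -9 and TGACG at -147 to -143. Ucp2 has none of the TATA letters and has GGGCGG at -79 to -74 and TGACG at -62 to -58, both read on the minus strand. Ucp3 has AGGTCA at -149 to -144 and again at -44 to -39. In the 250 bases before the start of all 32851 RefSeq promoters, TATATA was found in 5.25%, AGGTCA in 14.0%, TGACG in 17.8%, GGGCGG in 32.7%, TATAAA in 12.4%, CCAAT in 33.8%, TGACGTCA in 1.55% and TCAAGGTCA in 0.387%. The same windows held 12 CpG in Ucp1, 16 in Ucp2 and 3 in Ucp3, with a GC content of 64.8, 63.6 and 54.8%. A match is a description of the letters and not evidence of binding.

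Counts assigned to genes ran from 27609717 to 36792555 per library, of which 31.1 to 42.5% came from mitochondrially encoded genes. Within groups, libraries varied beyond sampling noise (chi-square per degree of freedom of 11.2 to 93.7), so all 12 were kept as separate samples, and p-values measure the spread between pools. The tissue label was checked against markers: Cidea, Dio2 and Fabp4 had at least 1027, 283 and 5632 CPM in every library. CPM are counts relative to library size after scaling by TMM factors. Cdk7, the deleted gene, had 15.1 to 18 CPM across the 6 WT pools and 4.35 to 5.77 across those of KO. The summed level of 15 skeletal muscle markers ranged from 39.8 to 1412 CPM and was highest in KO replicate 6 and WT replicate 2 at room temperature. With library totals in place of TMM factors the median log2 fold change of all tested genes moved from 0.00 to 0.22 for KO against WT at room temperature, from 0.01 to 0.45 for the same comparison in the cold, from -0.03 to -0.23 for cold in WT and from 0.01 to 0.24 for the interaction. For cold in KO it moved from -0.02 to 0.00.

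Ucp1 was far above its relatives in every group. Per kilobase of exon it had 4465 ± 635 CPM (SD, n = 3) in WT at room temperature, against 78.7 ± 15.5 for Ucp3 and 4.17 ± 0.279 for Ucp2. Of the summed per-kilobase level of the 3 genes, Ucp1 made up 98.2 ± 0.0836% in WT and 98.5 ± 0.274% in KO at room temperature, and 99.5 ± 0.1252% in WT and 99.2 ± 0.0965% in KO in the cold. The order of the other 2 differed between genotypes in the cold: per kilobase, Ucp3 stood at 40.03 ± 8.80 and Ucp2 at 4.61 ± 0.240 CPM in WT, and Ucp3 at 7.91 ± 0.524 and Ucp2 at 11.2 ± 0.892 CPM in KO. At room temperature in KO, Ucp3 had 23.3 ± 8.19 and Ucp2 14.2 ± 1.94 CPM per kilobase. With the longest transcript as the length, the KO values at room temperature were 29.8 ± 10.5 for Ucp3 and 24.9 ± 3.39 for Ucp2, within the spread between pools.

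**Figure D1:**
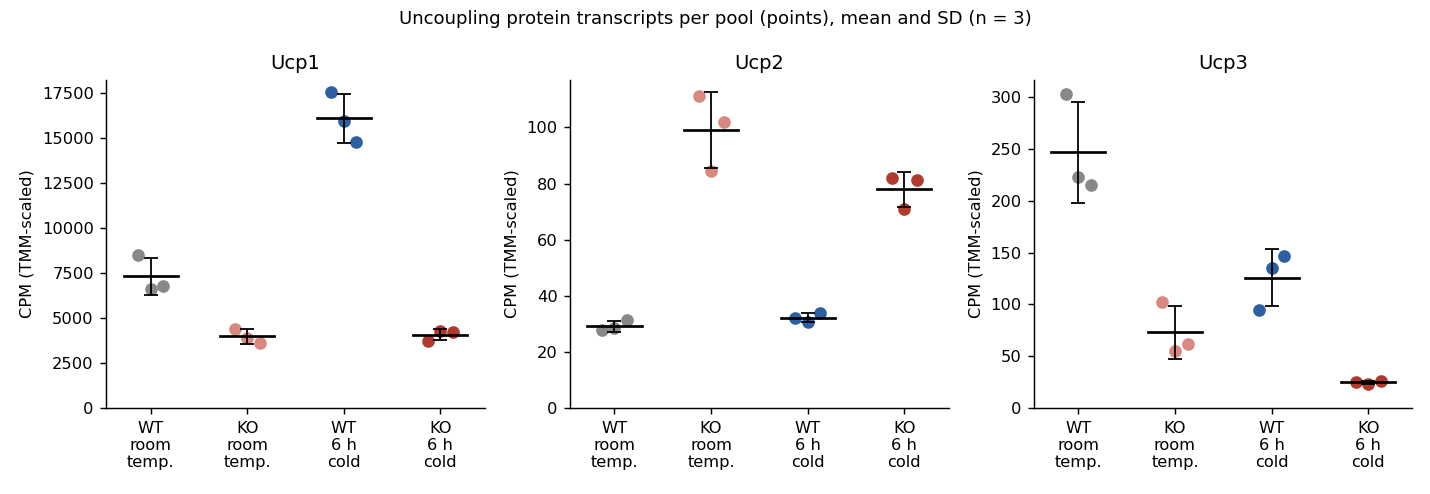
CPM of Ucp1, Ucp2 and Ucp3 in each pool (points), with group mean and SD (line and bar, n = 3 pools), by genotype and temperature on axes that start at 0. Ucp1 is highest in WT in the cold (14787 to 17543 CPM), Ucp2 is higher in all 6 KO pools than in all 6 WT pools, and Ucp3 is lowest in KO in the cold (23.1 to 26.4 CPM).

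Ucp1 was lower in KO at both temperatures, had its highest level in the cold in WT and showed no detectable cold response in KO. WT pools stood at 8501, 6627 and 6787 CPM without cold and at 17543, 15936 and 14787 CPM after it. KO pools stood at 4395, 3906 and 3608 CPM without cold and at 3723, 4283 and 4207 CPM after it. Cold WT pools were above all others, all 6 KO pools lay under all 6 WT pools, and KO values of both temperatures overlapped. KO was 1.84-fold below WT at room temperature (log2 fold change -0.88 ± 0.12, ± giving the standard error here and for all log2 values) and 3.95-fold below in the cold (-1.98 ± 0.13). Adjusted p was 3.4e-05 and 6.9e-09 (edgeR's quasi-likelihood test, Benjamini-Hochberg adjustment across all tested genes, as for every adjusted p that follows). KO against WT called 40.4% of all tested genes without cold (21% lower, 19.3% higher) and 53.7% after it (27.8% lower, 25.9% higher).

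The cold raised Ucp1 2.20-fold in WT (1.14 ± 0.12, adjusted p = 1.5e-06), where 46.3% of all tested genes were called, 23% higher and 23.2% lower, and 55.4% had groups that do not overlap. In KO the fitted change was 0.04 ± 0.12 (adjusted p = 0.88, 95% interval from -0.22 to 0.29), in a comparison that called 14.8% of genes, 7.29% higher and 7.56% lower, and had 32.8% with groups that do not overlap. The interval of the KO response ends below the 2.20-fold rise of WT, and the difference between both responses was itself called (interaction -1.10 ± 0.17, adjusted p = 0.00037), as for 23.5% of genes, 12.9% with a lower and 10.6% with a higher response in KO. Over 22 alternatives the interaction of Ucp1 ran from -1.21 to -0.90 with adjusted p of at most 0.0023. Ordered by level, Ucp1 stood lowest in KO at room temperature, then in KO in the cold, WT at room temperature and WT in the cold. The first pair in this order did not differ beyond its spread, and KO in the cold was below WT at room temperature (-0.84 ± 0.12, adjusted p = 2.1e-05). That last comparison called 52.1% of all tested genes, 26.9% lower and 25.1% higher, with groups that do not overlap for 60.1%.

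**Figure D2:**
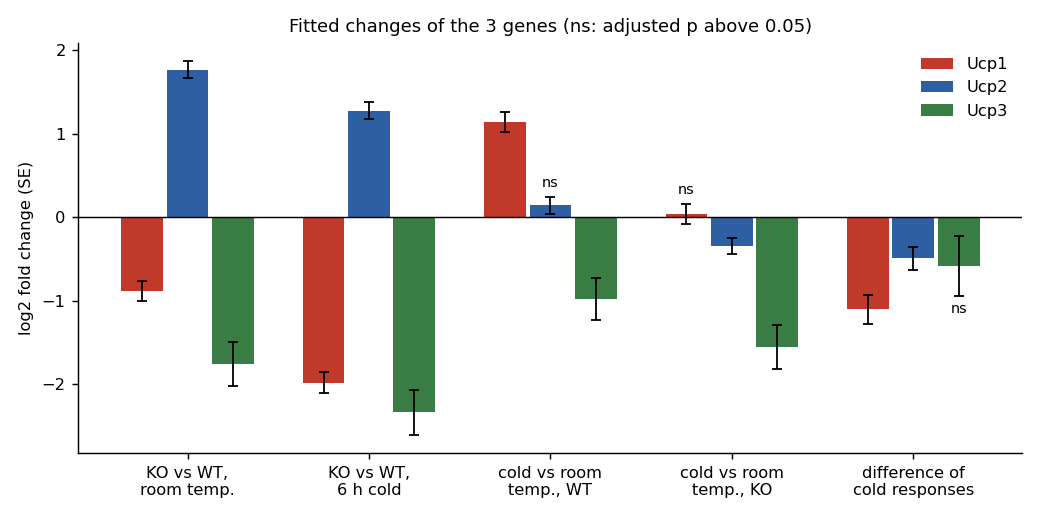
Fitted log2 fold changes of the 3 genes (bars, with standard error) in the 4 pairwise comparisons and for the difference of both cold responses, KO minus WT. Ucp1 and Ucp3 are below 0 and Ucp2 above 0 in both comparisons of KO with WT, and only Ucp1 is called higher in the cold, in WT (1.14).

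As a share of all counts assigned to genes, Ucp1 took 0.720, 0.678 and 0.677% in WT without cold and 1.53, 1.27 and 1.24% in WT after it. The corresponding shares in KO were 0.482, 0.442 and 0.398%, then 0.438, 0.491 and 0.451%. The WT pools in the cold thus spent about 1 count in 65.6 to 80.7 on this gene, and the KO pools in the cold 1 in 204 to 228. The exact Clopper-Pearson 95% interval of each share was within 0.00434 percentage points on either side, which covers counting error only. The mean share in KO was 0.637 times that of WT at room temperature and 0.342 times in the cold, and the cold share was 1.94 times the room temperature share in WT and 1.04 times in KO. An exact 2-sided permutation test of 3 against 3 pools cannot go below p = 0.1, which the first 3 comparisons reached (adjusted p = 0.133 over 4 tests), and cold in KO gave p = 0.5. Relative to nuclear-encoded genes alone the shares were 1.09 ± 0.141% and 0.660 ± 0.0704% for WT and KO at room temperature, and 2.17 ± 0.155% and 0.686 ± 0.0442% in the cold (SD, n = 3).

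By raw count Ucp1 was the second most abundant nuclear-encoded gene in all 3 WT pools in the cold, behind Scd1, the stearoyl-CoA desaturase. It ranked 3, 5 and 5 in WT at room temperature, and between 5 and 7 in all KO pools. Ranks of Ucp3 among nuclear-encoded genes were 291 to 407 in WT and 926 to 2228 in KO at room temperature, and 790 to 1415 in WT and 4295 to 4727 in KO in the cold. Ucp2 ranked between 3804 and 4335 in WT pools and between 830 and 1601 in KO pools. By raw count Ucp3 therefore ranked above Ucp2 in each WT pool and below it in each KO pool, at both temperatures. Raw counts take no account of length. Per kilobase of exon, the mean of Ucp3 was above that of Ucp2 in KO at room temperature (23.3 and 14.2 CPM).

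Ucp3 fell with the deletion and fell with the cold. WT pools held 303, 222 and 215 CPM without cold and 94.3, 135 and 147 CPM after it. KO pools held 102, 55.1 and 61.3 CPM without cold and 24.9, 23.1 and 26.4 CPM after it. At either temperature the genotypes did not overlap, cold pools lay under all room temperature pools of their genotype, and KO replicate 4 at room temperature overlapped the WT pools in the cold. KO was 3.38-fold below WT at room temperature (-1.76 ± 0.26, adjusted p = 0.00062) and 5.06-fold below in the cold (-2.34 ± 0.27, adjusted p = 7.3e-05). Groups that do not overlap were seen for 48.8% and 62.7% of all tested genes in these comparisons.

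The cold lowered Ucp3 1.97-fold in WT (-0.98 ± 0.25, adjusted p = 0.011) and 2.94-fold in KO (-1.56 ± 0.26, adjusted p = 0.0046). In WT, Ucp1 and Ucp3 thus moved in opposite directions within the same 6 h. The difference between the cold responses of Ucp3 did not pass (-0.58 ± 0.36, adjusted p = 0.28, 95% interval from -1.39 to 0.23). With no filter beyond 1 count it was called at -0.53 (adjusted p = 0.0035), and over 22 alternatives adjusted p ran from 0.0035 to 0.51. From the highest to the lowest group, WT at room temperature against KO in the cold, Ucp3 differed 9.95-fold (-3.31 ± 0.28, adjusted p = 7.2e-06). The middle groups of the order, WT in the cold and KO at room temperature, differed by 0.78 ± 0.25 (adjusted p = 0.026) although their pools overlapped, in a comparison that called 54.3% of all tested genes, 27.2% in either direction, and had 60.9% with groups that do not overlap. The coefficient of variation of Ucp3 between pools was 19.7% and 22.0% in WT without and with cold and 35.2% in KO without cold, above those of Ucp1 and Ucp2 in the same groups. In KO in the cold it was 6.63%, below 7.46% for Ucp1 and 7.99% for Ucp2.

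Skeletal muscle is rich in Ucp3, so its markers were read beside it. At room temperature the summed marker level was 483, 1080 and 168 CPM for WT and 53.2, 39.8 and 1412 CPM for KO, and in the cold 68.5 to 169 CPM for WT and 43.7 to 308 CPM for KO. KO replicate 6, with 1412 CPM of these markers, had 61.3 CPM of Ucp3, between the other 2 pools of its group. Without that pool and WT replicate 2 the fold changes of Ucp3 stayed called in the 4 pairwise comparisons. Ucp3 also overlaps Gm10603, an annotated antisense gene with no shared exon base, which had 12.4 to 19.2 CPM in WT at room temperature, 8.05 to 8.71 in KO at room temperature, 14.1 to 16.3 in WT in the cold and 4.45 to 5.61 in KO in the cold. Gm10603 was lower in KO at both temperatures (-0.92 ± 0.14 and -1.62 ± 0.14) and lower in the cold in KO (-0.76 ± 0.14), with -0.06 ± 0.14 for cold in WT (adjusted p = 0.76). The strand setting is known only from the file names, so reads of both genes may not be fully told apart.

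Ucp2 was higher in KO. WT pools carried 27.7, 28.3 and 31.4 CPM without cold and 32.1, 30.6 and 33.9 CPM after it. KO pools carried 111, 84.5 and 102 CPM without cold and 82.0, 70.8 and 81.2 CPM after it. All 6 KO pools were above all 6 WT pools, the WT groups overlapped, and the KO pools in the cold were below those at room temperature. Ucp2 was 3.40-fold above WT at room temperature (1.77 ± 0.10, adjusted p = 5.8e-09, rank 6 by p among all tested genes) and 2.42-fold above in the cold (1.28 ± 0.10, adjusted p = 6.9e-08).

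The cold did not change Ucp2 detectably in WT (0.14 ± 0.10, adjusted p = 0.26, 95% interval from -0.07 to 0.36). In KO it was 1.27-fold lower in the cold (-0.35 ± 0.10, adjusted p = 0.024), and the interaction was -0.49 ± 0.14 (adjusted p = 0.018). With library totals both calls ended (-0.32, adjusted p = 0.1, and -0.26, adjusted p = 0.29), as they did without the 2 pools richest in skeletal muscle markers (-0.33, adjusted p = 0.096, and -0.45, adjusted p = 0.09). The change in KO was also not called without KO replicate 4 or 6 at room temperature (-0.26 and -0.33, adjusted p = 0.11 and 0.081) or KO replicate 2 in the cold (-0.28, adjusted p = 0.13). The interaction lost its call without KO replicate 2 in the cold (-0.43, adjusted p = 0.057) or WT replicate 3 in the cold (-0.44, adjusted p = 0.05). Ucp2 shares exon bases on the opposite strand with Dnajb13, which had 4 to 16 counts per library.

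Macrophages carry Ucp2, so their markers were read beside it. The part of macrophages in the values of Ucp2 was not tested. The summed level of 13 macrophage markers ran from 85.5 to 113 CPM for WT and 259 to 345 CPM for KO without cold, and from 117 to 126 CPM for WT and 318 to 437 CPM for KO after it. All tested genes were higher in KO for 19.3% and lower for 21% without cold, and for 25.9% and 27.8% after it. Of 12 tested markers, KO had 10 higher and 0 lower at either temperature. Among them were the complement genes C1qa (1.38 ± 0.10 at room temperature and 1.18 ± 0.10 in the cold), C1qb (1.55 ± 0.10 and 1.27 ± 0.10) and C1qc (1.43 ± 0.13 and 1.46 ± 0.13). Itgam is listed at 0 in every library. For cold in KO, 7.29% of all tested genes were called higher and 7.56% lower. There 5 markers were called higher and 0 lower (median 0.31), among them Cd163 (1.85 ± 0.38) and Mrc1 (0.82 ± 0.22). Under library totals 1 was higher, and without the pools richest in muscle markers 2 were. Mrc1 was called in neither of these fits (0.86 and 0.75, adjusted p = 0.058 and 0.082). Per 100 macrophage marker reads, Ucp2 had 32.4, 26.3 and 27.7 reads in WT and 42.9, 28.6 and 29.5 in KO at room temperature, and 25.6, 26.2 and 26.8 in WT and 18.8, 22.3 and 25.04 in KO in the cold. These ratios overlapped between genotypes at room temperature and were lower in KO in the cold, while CPM of Ucp2 did not overlap in either. Lymphocyte markers were higher in KO for 3 of 10 at room temperature and 5 of 10 in the cold, endothelial markers for 8 and 9 of 10 and fibroblast markers for 5 and 6 of 10, with 0 lower in each. The 0 lower held under library totals and without the pools richest in muscle markers, but the counts higher moved. At room temperature these 2 alternatives gave 6 and 2 lymphocyte, 8 and 5 endothelial and 8 and 3 fibroblast markers higher. In the cold they gave 7 and 5, 10 and 9, and 9 and 6.

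Adipocyte markers were read beside the fall of Ucp1. Of 10 brown adipocyte markers other than Ucp1, 0 were higher and 6 lower in KO at either temperature (list median -0.34 without cold, -0.52 after it). Their summed level overlapped between genotypes without cold (4010 to 5043 CPM for WT, 3746 to 4326 for KO) but not after it (7488 to 7666 CPM for WT, 4320 to 4701 for KO). This sum leans on its most abundant members, and Dio2 alone ran from 283 to 3643 CPM over the 12 libraries. For cold in WT the list median was 0.01, beside -0.03 for all tested genes. Of 10 general adipocyte markers, 1 was higher and 5 lower in KO without cold, and 1 higher and 3 lower after it. Of all tested genes, 19.3% were higher and 21% lower in KO without cold, and 25.9% and 27.8% after it. The count of general markers lower in the cold is near that share. The summed level of the general markers was 13092 to 13264 CPM for WT and 9414 to 11984 CPM for KO without cold, and 11779 to 12128 CPM for WT and 10229 to 10545 CPM for KO after it, so that the genotypes did not overlap. Fabp4 alone, the most abundant of them, had 5632 to 8092 CPM. These adipocyte counts depended on the scaling: with library totals brown adipocyte markers were higher for 1 and lower for 3 without cold and 2 and 3 after it, and general ones 2 and 2, then 5 and 1. Without the pools richest in muscle markers 3 brown and 3 general markers were lower at room temperature. Fewer cells of a type and less RNA per cell cannot be told apart in whole tissue, and the part of these cells in the values of Ucp1, Ucp2 and Ucp3 was not tested.

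**Figure D3:**
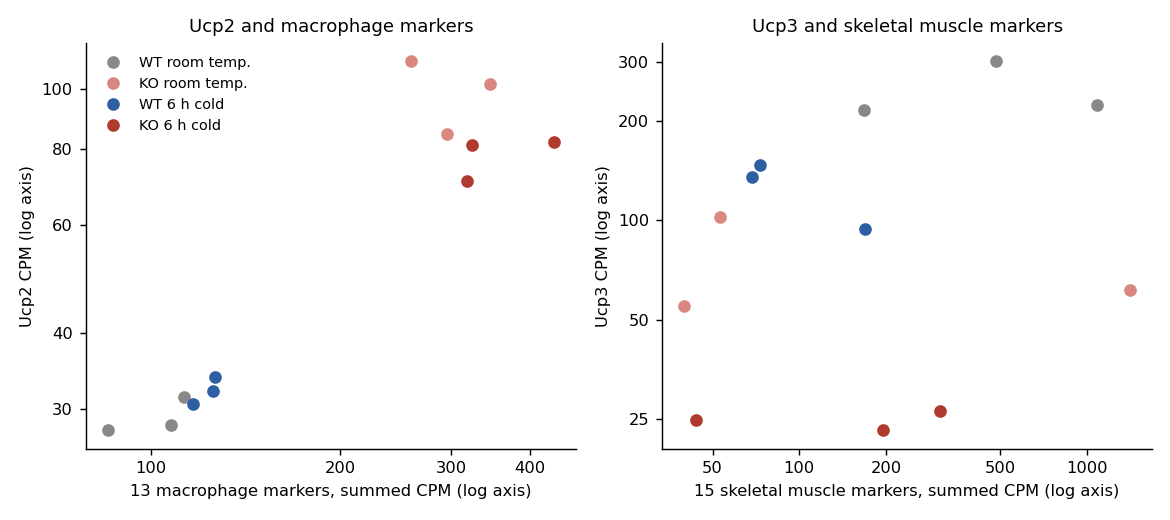
Left, CPM of Ucp2 against the summed CPM of 13 macrophage markers, and right, CPM of Ucp3 against that of 15 skeletal muscle markers, 1 point per pool, all axes logarithmic. KO pools lie at high Ucp2 and high macrophage markers (259 to 437 CPM), while Ucp3 of KO replicate 6 at room temperature (61.3 CPM) lies among its group at 1412 CPM of muscle markers.

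Ratios within a library do not depend on its scaling. Ucp1 had 29.8 ± 1.74 reads per Ucp3 read in WT at room temperature, 57.6 ± 14.0 in KO at room temperature, 135 ± 45.1 in WT in the cold and 165 ± 18.4 in KO in the cold (SD, n = 3). The ratio was 4.37-fold higher in the cold in WT and 2.91-fold higher in KO (geometric means), and the cold pools of both genotypes overlapped. Ucp3 had 8.54 ± 2.12 reads per Ucp2 read in WT and 0.725 ± 0.172 in KO at room temperature, then 3.90 ± 0.833 in WT and 0.318 ± 0.0130 in KO in the cold. This ratio was 11.8-fold lower in KO at room temperature and 12.0-fold lower in the cold, and the cold lowered it 2.19-fold in WT and 2.24-fold in KO. Ucp1 had 252 ± 47.9 and 40.4 ± 5.45 reads per Ucp2 read in WT and KO at room temperature, and 501 ± 57.8 and 52.6 ± 7.56 in the cold. Of 12 exact 2-sided permutation tests of log2 ratios, 10 gave the smallest possible p of 0.1 (adjusted p = 0.12), and the exceptions were Ucp1 per Ucp3 read between genotypes in the cold (p = 0.4) and Ucp1 per Ucp2 read for cold in KO (p = 0.2).

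**Figure D4:**
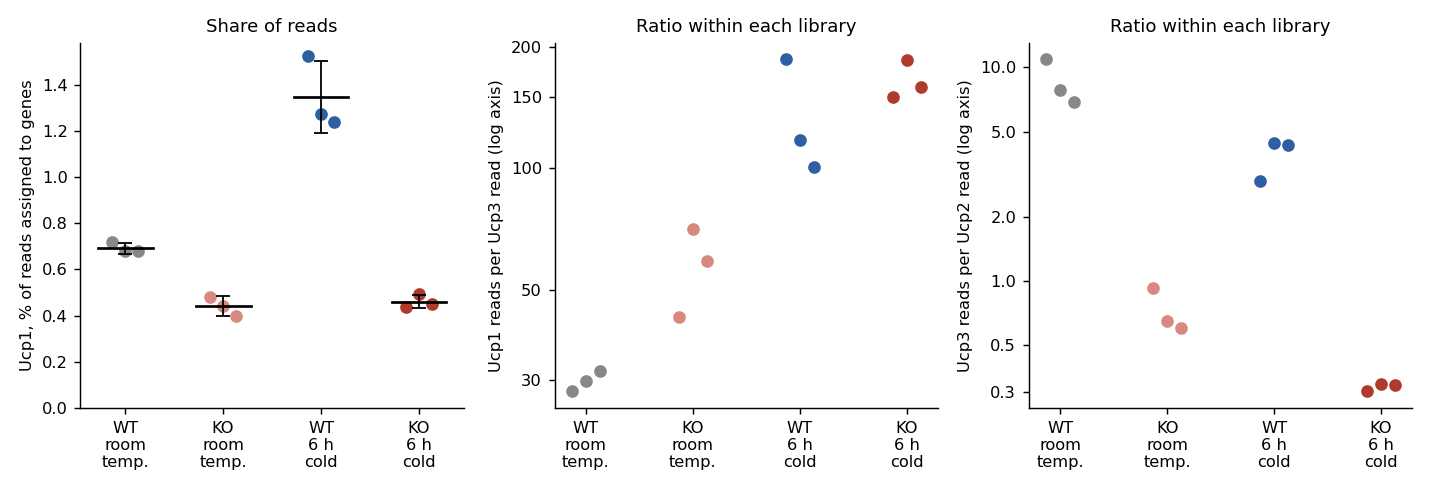
Left, share of assigned reads taken by Ucp1 in each pool (points; line and bar, mean and SD, n = 3), on an axis from 0. Middle and right, Ucp1 reads per Ucp3 read and Ucp3 reads per Ucp2 read in each pool on log axes: the first is highest in the cold in both genotypes (101 to 186), and the second is below 1 in all 6 KO pools and above 2 in all 6 WT pools.

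Genes that act on Ucp1 transcription were read from a list of 20 activators and coactivators. Without cold, KO had 3 of them higher and 7 lower (list median -0.08, all tested genes 0.00), against 19.3% and 21% of all tested genes. The lower ones included Ppara, a fatty acid receptor (58 against 155 CPM, -1.43 ± 0.14), Ppargc1b, a coactivator of mitochondrial genes (-1.25 ± 0.12), the retinoid receptor Rxrg (-0.95 ± 0.10) and the estrogen-related receptor Esrrg (-0.99 ± 0.08). In the cold 1 was higher and 13 lower (median -0.66, all genes 0.01), against 25.9% and 27.8%, with Ebf2, a brown adipocyte factor, at -1.10 ± 0.10, Rxrg at -1.45 ± 0.10, Esrra at -1.10 ± 0.09 and Esrrg at -1.29 ± 0.09. With library totals these counts were 5 and 6 at room temperature (median 0.14) and 6 and 8 in the cold (median -0.22), and without the 2 pools richest in muscle markers 0 and 7 at room temperature. The cold in WT raised 6 and lowered 7 of the 20 (23% and 23.2% of all tested genes), with rises of the cAMP-regulated factor Atf2 (0.71 ± 0.13) and the coactivator Ncoa1 (0.84 ± 0.13) and falls of Esrrg (-0.73 ± 0.08) and Ebf2 (-0.55 ± 0.10). With library totals 3 rose and 9 fell. In KO, where the cold raised 7.29% and lowered 7.56% of all tested genes, it raised 1, Zbtb16 (1.75 ± 0.28), and lowered 7, among them Esrrg (-1.02 ± 0.08), Ebf2 (-0.82 ± 0.10) and Rxrg (-0.79 ± 0.10).

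For the interaction, 6 of the 20 activators had a lower and 0 a higher cold response in KO, against 12.9% and 10.6% of all tested genes. They included Atf2 (-0.96 ± 0.18), Ncoa1 (-0.91 ± 0.18), Esrra (-0.61 ± 0.13) and the nuclear factor Nfia (-0.65 ± 0.16), while 3 were lower with library totals, where Esrra (-0.38, adjusted p = 0.12) and Nfia (-0.44, adjusted p = 0.054) were not called, and 3 without the pools richest in muscle markers. Of 9 tested repressors of Ucp1, KO had 0 higher and 3 lower without cold, and 2 higher and 3 lower after it, where Foxp1 stood at 0.67 ± 0.10 and the liver X receptor Nr1h3 at -0.70 ± 0.11. These counts are near the 40.4% and 53.7% of all tested genes called in the same comparisons. With library totals 0 repressors were called at room temperature, and 5 were higher and 1 lower in the cold.

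Genes of the adrenergic and cAMP signal were lower in KO for 7 of 12 and higher for 1 at room temperature (median -0.38), and lower for 8 and higher for 1 in the cold (median -0.59). Of all tested genes, 21% were lower and 19.3% higher without cold, and 27.8% and 25.9% after it. The beta-1 adrenergic receptor Adrb1 stood at -0.71 ± 0.15 and -1.66 ± 0.16, and the protein kinase A subunit Prkar2b at -1.07 ± 0.10 and -0.74 ± 0.09. Adcy3, an adenylyl cyclase, rose in WT in the cold from 418 to 1062 CPM (1.35 ± 0.20) and had a lower response in KO (interaction -1.13 ± 0.27, adjusted p = 0.012, not called without the pools richest in muscle markers, -1.04, adjusted p = 0.056). Map2k6, a kinase above p38, fell in WT in the cold (-2.34 ± 0.27) and had a higher response in KO (interaction 2.84 ± 0.36, adjusted p = 8.8e-05). Of the 12, 4 had a lower and 1 a higher response in KO, against 12.9% and 10.6% of all tested genes. With library totals 5 were lower in KO at either temperature, with 2 higher at room temperature and 1 in the cold.

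Fatty acids fuel and open Ucp1, and genes of their supply were lower in KO for 7 of 13 and higher for 1 at room temperature (median -0.32), and lower for 9 and higher for 2 in the cold (median -0.60), beside 21% and 19.3%, then 27.8% and 25.9%, of all tested genes. In the cold the lipoprotein lipase Lpl had 5688 against 11606 CPM (-1.03 ± 0.12), the acyl-CoA synthetase Acsl1 -1.18 ± 0.14, the lipid droplet protein Plin5 -1.28 ± 0.10 and the carnitine carrier Slc25a20 -0.89 ± 0.09. The cold in WT raised Lpl (0.90 ± 0.12) and Acsl1 (0.66 ± 0.14) and lowered the hormone-sensitive lipase Lipe (-0.94 ± 0.11), and in KO Lipe fell as well (-0.93 ± 0.11). With library totals, 4 members were higher and 6 lower in KO in the cold, and without the pools richest in muscle markers 1 was higher and 4 lower at room temperature.

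Of 12 tested genes held to make heat without Ucp1, KO had 4 higher and 3 lower without cold (2 and 3 without the pools richest in muscle markers), and 2 higher and 5 lower after it, with 40.4% and 53.7% of all tested genes called in either direction. The cold raised 6 and lowered 3 in WT (23% and 23.2% of all tested genes), among the rises the creatine kinase Ckb (14.0 to 58.3 CPM, 2.06 ± 0.20), the phosphatase Alpl (1.60 ± 0.17), the calcium pump Atp2a2 (1.02 ± 0.13) and the triglyceride synthase Dgat1 (1.42 ± 0.13). In KO it raised 0 and lowered 1 (7.29% and 7.56% of all tested genes), and 6 of the 12 had a lower and 0 a higher response in KO (12.9% and 10.6%). Over the alternatives the cold in KO raised 0 to 3 and lowered 0 to 4 of them. Dgat1 was called higher there with DESeq2 (0.37, adjusted p = 0.039) and voom (0.49, adjusted p = 0.0039), and Atp2a2 with voom (0.30, adjusted p = 0.032). Interactions were -1.86 ± 0.27 for Ckb, -1.37 ± 0.23 for Alpl, -1.07 ± 0.18 for Dgat1 and -0.74 ± 0.18 for Atp2a2, the last not called with library totals (-0.52, adjusted p = 0.075), where 3 of the list were lower and 1 higher.

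Carriers of the SLC25 family near the uncoupling proteins did not share 1 direction. Of 11 tested, KO had 1 higher and 4 lower without cold, and 4 higher and 4 lower after it, or 2 and 2, then 5 and 3, with library totals. All tested genes were called in either direction for 40.4% without cold, which the list is near, and for 53.7% after it. The dicarboxylate carrier Slc25a10 rose from 9.39 to 37.9 CPM at room temperature (2.02 ± 0.17) and was again higher in KO in the cold (1.59 ± 0.18). Slc25a35 was lower at both temperatures (-0.94 ± 0.11 and -1.54 ± 0.11), and Slc25a34 rose in WT in the cold from 10.4 to 50.9 CPM (2.31 ± 0.37). For the interaction, 2 of the 11 had a higher and 1 a lower cold response in KO, against 10.6% and 12.9% of all tested genes. Slc25a30 and Slc25a27 had the higher response (0.94 ± 0.18 and 1.08 ± 0.28) and Slc25a35 the lower (-0.60 ± 0.16, adjusted p = 0.012). Slc25a35 was not called there with library totals (-0.37, adjusted p = 0.11) or without the pools richest in muscle markers (-0.53, adjusted p = 0.075).

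PPAR target genes, with which Ucp3 is known to be induced, were lower in KO for 6 of 12 and higher for 1 at room temperature (median -0.40), and lower for 7 and higher for 1 in the cold (median -0.49), where 40.4% and 53.7% of all tested genes were called in either direction. At room temperature Pdk4, the kinase that blocks pyruvate dehydrogenase, stood at -0.82 ± 0.21, Angptl4 at -0.80 ± 0.20 and the thioesterase Acot2 at -0.57 ± 0.13. Without the 2 pools richest in muscle markers 1 was lower and 0 higher, and Pdk4 (-0.72, adjusted p = 0.086) and Angptl4 (-0.59, adjusted p = 0.079) were not called. With library totals 3 were lower and 1 higher at room temperature, and 2 lower and 3 higher in the cold. Under that scaling Acot2 was not called at room temperature (-0.35, adjusted p = 0.057). The cold, which lowered Ucp3 in both genotypes, raised 3 and lowered 3 of these genes in WT (23% and 23.2% of all tested genes) and raised 0 and lowered 1 in KO (7.29% and 7.56%), where the member that fell was the peroxisomal enzyme Ehhadh (-1.09 ± 0.28, adjusted p = 0.034, not called in 8 fits with 1 pool left out). With library totals the cold raised 0 and lowered 4 in WT. In WT the lipid droplet protein Plin2 rose (0.40 ± 0.09, with library totals 0.21, adjusted p = 0.12).

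Both genes next to Ucp1 were higher in KO at room temperature, where Ucp1 was lower. Distances are between the lower coordinates of the genes. Tbc1d9, at -125 kb on the same strand, had 8.32, 4.95 and 4.19 CPM in WT without cold and 16.6, 17.3 and 12.96 CPM after it, against 29.5, 44.6 and 39.8 CPM in KO without cold and 43.9, 46.6 and 53.6 CPM after it. All 6 KO pools were above all 6 WT pools (2.72 ± 0.25 and 1.62 ± 0.23, adjusted p = 2.2e-05 and 0.00024), and the cold raised it in WT (1.44 ± 0.25, adjusted p = 0.00094), with 0.34 ± 0.22 in KO (adjusted p = 0.36). Elmod2, at 22.3 kb on the minus strand, had 84.9, 54.3 and 38.7 CPM in WT without cold and 156, 158 and 125 CPM after it, against 141, 258 and 187 CPM in KO without cold and 174, 217 and 176 CPM after it. It was higher in KO at room temperature (1.72 ± 0.31, adjusted p = 0.0022), was not called in the cold although the pools did not overlap (0.37 ± 0.30, adjusted p = 0.32), and was raised by the cold in WT (1.30 ± 0.30, adjusted p = 0.0069) with -0.05 ± 0.30 in KO. Elmod2 was called higher in KO in the cold under 4 alternatives: library totals (0.81, adjusted p = 0.018), no filter beyond 1 count (0.39, adjusted p = 7e-04), voom (0.44, adjusted p = 0.046) and only the 6 libraries compared (0.41, adjusted p = 0.0047).

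Like Ucp1, both neighbours had a lower cold response in KO (interaction -1.10 ± 0.33, adjusted p = 0.038 for Tbc1d9, and -1.35 ± 0.42, adjusted p = 0.048 for Elmod2). These calls ended without the pools richest in muscle markers (-0.97 and -1.32, adjusted p = 0.16 for both) and in most fits with 1 pool left out. Rnf150, at -427 kb, was lower in KO (-0.78 ± 0.13 and -0.87 ± 0.13) and had no called cold response, and Mgat4d, at 58.1 kb, had at most 20 counts in any library. Around the pair on chromosome 7, Ppme1, a phosphatase methylesterase at -146 kb from Ucp3, rose in the cold in WT (36.8 to 75.6 CPM, 1.04 ± 0.10), stood at 0.10 ± 0.10 for cold in KO, and had an interaction of -0.94 ± 0.14 (adjusted p = 0.00026). C2cd3, Dnajb13 and Coa4 were called in none of the 4 pairwise comparisons, but C2cd3 was called higher in KO with library totals at both temperatures (0.39 and 0.51), and at room temperature also with voom (0.23, adjusted p = 0.032) and without KO replicate 4 (0.25, adjusted p = 0.039).

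**Figure D5:**
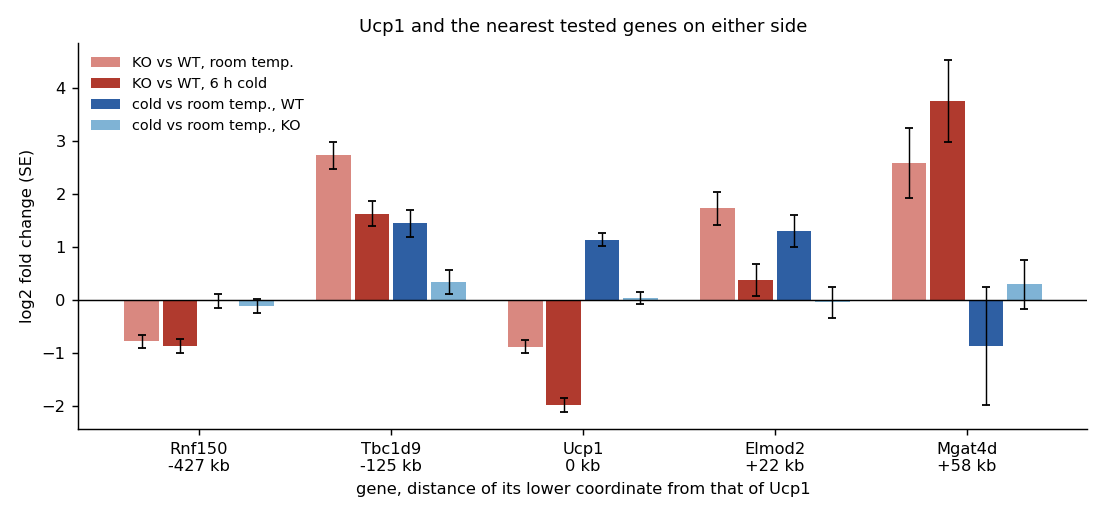
Fitted log2 fold changes (bars, with standard error) of Ucp1 and the nearest tested genes with an official symbol on either side, ordered by position, with the distance of each gene's lower coordinate from that of Ucp1. Tbc1d9 and Elmod2 are above 0 in KO at room temperature (2.72 and 1.72), where Ucp1 is at -0.88, and Ucp1, Tbc1d9 and Elmod2 are raised by the cold in WT (1.14, 1.44 and 1.30). Mgat4d rests on at most 20 counts per library.

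Over the 12 libraries, log2 CPM of Ucp1 and Ucp2 had a Pearson's r of -0.813, Ucp1 and Ucp3 one of 0.582 and Ucp2 and Ucp3 one of -0.749, as a description of libraries that share the 4 groups, their scaling and their depth. By the same measure among 10305 genes whose log2 CPM averaged 1 or more, the genes most like Ucp1 were Srp72 (r = 0.989), Timm17a (0.985), Tmem37 (0.984), Usp25 (0.983) and Coa7 (0.983). Srp72, part of the signal recognition particle, had 71.0 ± 5.39 CPM in WT and 55.6 ± 2.73 in KO at room temperature, and 91.3 ± 2.48 and 54.4 ± 2.69 in the cold. Timm17a, part of the import machinery of the inner mitochondrial membrane, had 101 ± 3.73, 89.3 ± 3.17, 138 ± 6.10 and 89.3 ± 1.40 CPM in the same order. Their range over the groups was narrower than that of Ucp1.

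The genes most like Ucp2 were Sfxn3 (0.983), Slco2a1 (0.976), Crip1 (0.971), Slco2b1 (0.969) and Arrb2 (0.968). Sfxn3, a mitochondrial carrier of the sideroflexin family, had 4.81 ± 0.144 CPM in WT and 10.1 ± 0.943 in KO at room temperature, and 5.36 ± 0.306 and 8.66 ± 0.651 in the cold. Those most like Ucp3 were Ginm1 (0.985), Dym (0.983), Spg20 (0.982), Orai3 (0.982) and Cldn12 (0.982). Orai3, a calcium channel of the plasma membrane, had 28.1 ± 3.22 CPM in WT and 17.9 ± 1.24 in KO at room temperature, and 22.1 ± 1.73 and 12.9 ± 1.12 in the cold, so that it followed the order of Ucp3 over a narrower range.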

How the data were processed

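RNA of interscapular brown fat was measured in 12 libraries. The deposited values were raw counts per Ensembl gene, 1 file per pool. Per the submitters' processing notes the authors used STAR and HTSeq with GRCm38, with versions not given in the sources used here; the strand setting is known from file names alone. HTSeq's summary lines were left out: 26.6 to 30.2% of all lines were multiply aligned, 1.07 to 1.37% ambiguous and 1.64 to 2.26% outside genes. Names and positions came from a GRCm38 annotation that held 53274 of 53379 IDs, and sequences of all 3 genes from RefSeq. In R 4.3.3, edgeR 4.0.16 filtered genes by group (15208 kept, 38171 removed), scaled libraries by TMM (factors 0.798 to 1.18) and fitted group means to all 12 libraries by a negative binomial model, with robust quasi-likelihood tests and Benjamini-Hochberg adjustment (threshold 0.05). The standard error of a fold change is its log2 value over the square root of F. A median-ratio scaling, other filters, DESeq2 1.42.0 and voom in limma 3.58.1 were among the alternatives. The fitting steps were also run on simulated counts. Those were changed in KO in the cold alone, equally up and down, so they cannot test the choice of scaling.

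The members, gene lists, motif letters and alternatives were chosen with earlier results of these data known. Apart from Ucp1, Ucp2, Ucp3 and Cdk7, genes are named by rule: the 2 nearest tested genes with an official symbol on either side of Ucp1 and of the pair Ucp2 and Ucp3, genes that overlap a member, up to 4 members of a list with the smallest p in a comparison, and the 5 genes most alike by Pearson's r. Not all genes that the rule takes are printed. Scd1 and the tissue markers were named after their values were seen.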

Additional observations from a re-analysis of the deposited data

Results flagged for a closer look

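The response of Ucp1 to cold differed between genotypes: the test of the difference itself gave a log2 value of -1.10 ± 0.17 for KO minus WT (edgeR's quasi-likelihood test, adjusted p = 0.00037, 3 pools per group). All 3 WT pools in the cold were above all 3 at room temperature, while the KO pools of both temperatures overlapped.

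The same test of the difference gave -0.49 ± 0.14 for Ucp2 (edgeR, adjusted p = 0.018), with WT pools that overlapped between temperatures and KO pools that were lower in the cold. Over 22 alternatives adjusted p for this value ran from 0.004 to 0.29.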

How the results depend on the processing

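Over the alternatives, 343 fold changes of Ucp1, Ucp2 and Ucp3 kept their side of the threshold, and their direction where called. Of the others, 10 no longer passed and 1 newly passed, and 0 called changes reversed. All values of Ucp1 and all 32 ratios of its share of reads stayed the same in this sense. So did those of Ucp3 but for the interaction, which passed with no filter beyond 1 count (-0.53, adjusted p = 0.0035). Changes that were not called could change sign. Ucp1 for cold in KO ran from -0.03 to 0.14, and its share ratio from 0.996 to 1.10 with 1 library left out. Ucp2 for cold in WT ran from -0.05 to 0.20. Ucp2 for cold in KO no longer passed with library totals (-0.32), with only the 6 libraries compared (-0.33) or without the 2 libraries richest in skeletal muscle markers (-0.33), and ran from -0.45 to -0.26 with 1 library left out. Its interaction no longer passed with library totals (-0.26) or without those 2 libraries (-0.45), and ran from -0.59 to -0.40 with 1 left out. The cause was not tested.

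Genes called were 6138 for KO against WT at room temperature (3566 without the 2 muscle-rich libraries), 2258 for cold in KO (1476 with library totals, 4092 with voom, 1214 without the muscle-rich libraries, 1171 to 2568 with 1 left out) and 3581 for the interaction (1903 without the muscle-rich libraries). The count for cold in KO fell most without KO replicate 6 at room temperature (1328), KO cold replicate 1 (1171) and KO cold replicate 2 (1274). Library totals changed the split of higher and lower calls from 2940 and 3198 to 4739 and 1267 for KO against WT at room temperature, from 3939 and 4222 to 7881 and 1073 in the cold, from 3503 and 3531 to 1826 and 4813 for cold in WT, and from 1614 and 1967 to 2388 and 711 for the interaction. Under that scaling Rb1, a repressor of Ucp1 called lower in KO in the cold (-0.40), was at 0.0466 and not called, the 1 reversal among the values of other genes named by rule, of which 4662 kept their call, 217 no longer passed and 48 newly passed. The shares of the per-kilobase sum moved with the longest transcript as length, as for Ucp1 in WT at room temperature (97.6%). Depth limits Mgat4d and Dnajb13, with at most 20 and 16 counts per library.

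Pools of WT at both temperatures and of KO in the cold share replicate numbers 1 to 3, while KO at room temperature has 4 to 6. Same-numbered pools had deviations correlated at -0.31 to 0.23 (1 of 9 pairs over 0.1), so the numbers were not taken to pair pools. In the 9 libraries that share numbers, the replicate block gave Ucp1 -1.97, Ucp2 1.29 and Ucp3 -2.33 for KO against WT in the cold, and 1.14, 0.14 and -0.98 for cold in WT. It called 7691 and 6671 genes and changed no call of the 3 genes.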
